A study of Oryza sativa Japonica Group with 20 samples.

Results

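The comparison set the RNA of slr1 seedlings against that of wild-type seedlings of rice (Oryza sativa, Japonica group). It used 3 slr1 libraries, labelled as an SLR1 knockout, and 3 wild-type libraries, labelled NIP, out of 20 samples in the series. All 6 came from 12-day-old seedlings grown on Murashige and Skoog medium under day and night cycles, per the series' design text and the labels, and no hormone is named for these 2 groups. The sources used here give neither the kind of mutation, nor the number of lines or plants behind a library, nor the strand setting of the counting. The p-values therefore measure only the spread between these libraries, which may be technical. Of 33838 genes in the deposited table, 25132 reached 10 normalised reads in 3 or more of the 6 libraries and were tested.

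In rice, SLR1 is the DELLA protein, which sits in the nucleus and holds back growth responses to the hormone gibberellin (GA). When GA binds its receptor GID1, the receptor takes hold of the DELLA protein and an F-box protein, GID2, marks it for destruction. Plants without a working DELLA protein behave as if GA were always present and grow tall and slender.

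Levels are normalised reads, the authors' reads per gene divided by a size factor for each library. They depend on gene length and are compared between libraries, not between genes. A gene "rose" or "fell" in slr1 only where limma's adjusted p was under 0.05 and the fold change on the log2(value + 1) scale was at least 2-fold. By that rule 1651 genes (6.57% of those tested) rose and 1795 (7.14%) fell, 13.7% in all, and the median log2 fold change over all genes tested was 0.01. Without wild-type replicate 3 the counts were 1179 and 1093. Among the called genes, 530 rose and 421 fell by at least 4-fold. Gene symbols below were paired with locus IDs from general knowledge and were not checked against an annotation. The table holds 304 of the 315 listed genes, and 279 were tested. The plot of members by list shows the spread of all 30 lists.

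**Figure D1:**
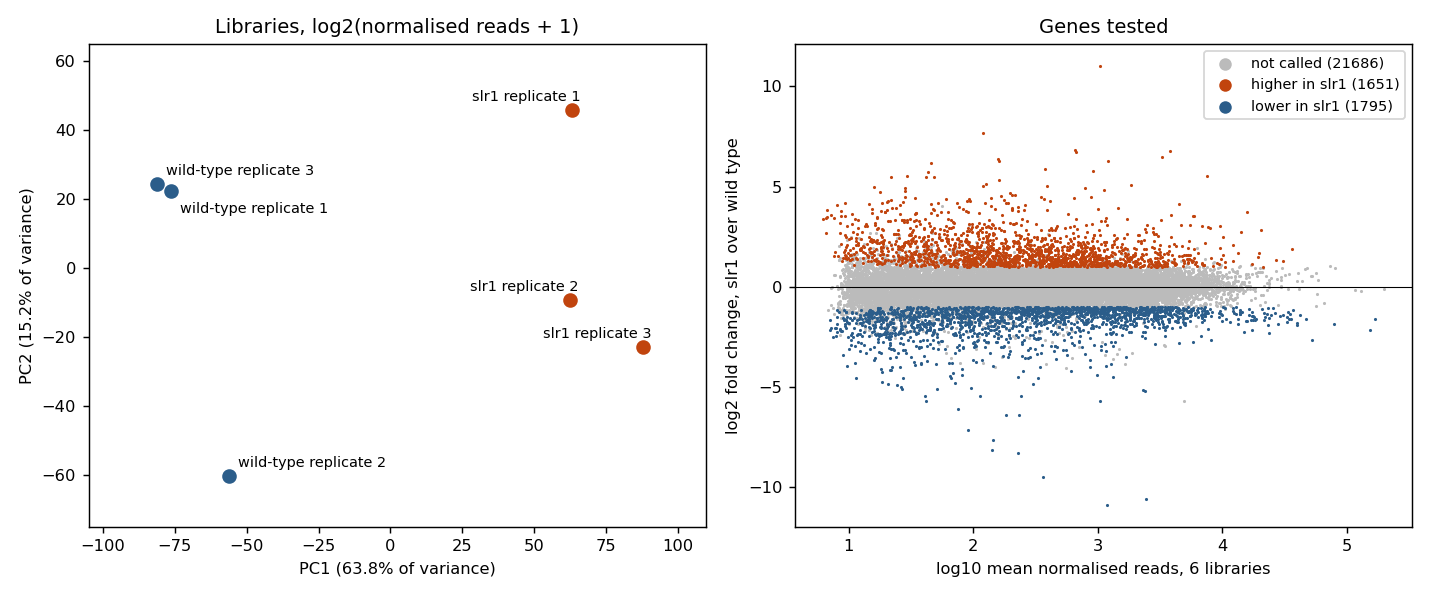
Left, the first 2 principal components of log2(normalised reads + 1) over the 25132 genes tested, 1 point a library. PC1 (63.8% of the variance) separated the 3 slr1 from the 3 wild-type libraries, and wild-type replicate 2 (-60.4) and slr1 replicate 1 (45.7) lay at the ends of PC2 (15.2%). Right, the log2 fold change of each gene against the log10 of its mean over the 6 libraries, with 1651 genes higher and 1795 lower in slr1.

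Leaving out slr1 replicate 1, whose whole reads were not accepted, the libraries held between 27778578 and 28007177 reads assigned to genes. Across the genes tested, Pearson's r between libraries was 0.963 to 0.976 within slr1, 0.965 to 0.986 within wild type and 0.894 to 0.938 between the genotypes. Wild-type replicate 2 stood apart from its group: 280 genes were at least 4-fold below both other wild-type libraries there, against 15 and 7 such genes in wild-type replicates 1 and 3. In slr1, replicate 3 held 163 such genes, replicate 2 38 and replicate 1 20. In the other direction slr1 replicate 1 stood out, with 59 genes at least 4-fold above both other slr1 libraries, against 9 and 19 in slr1 replicates 2 and 3. It also had the largest median distance from its group, 0.273 on the log2 scale, close to the 0.268 of slr1 replicate 3, against 0.219 for wild-type replicate 2. Root markers were sparse for tissue labelled seedling. Of 7 in the table, 5 missed the tested level, among them the nitrate transporter NRT2.1, which averaged 0.66 normalised reads in slr1 and 0 in wild type, and the root auxin carrier PIN2, which averaged 7.26 normalised reads in slr1 and 2.00 in wild type. Of the 8 leaf markers, all were tested.

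The SLR1 transcript (LOC_Os03g49990) was at 7309.7, 6379.5 and 7444 normalised reads in slr1, against 6133, 6810.1 and 7339.9 in wild type. The groups overlapped (log2 fold change 0.06, SE 0.13, adjusted p = 0.759 by limma). The transcript level therefore does not check the knockout label, since a mutation that spoils the protein need not lower the RNA.

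Genes that remove GA were higher and some that make it were lower. Of 10 tested GA-inactivating genes, 6 rose, 1 fell and 3 were not called, beside 6.57% and 7.14% of all genes tested, with a median log2 fold change of 2.35. The libraries of the 2 genotypes did not overlap for 10 of the 10, beside 45.1% of all genes tested. For GA2ox5 that was fixed by the filter, since only its slr1 libraries reached 10 normalised reads. GA2ox4 (LOC_Os05g43880), a GA 2-oxidase, stood at 169, 255 and 104 normalised reads in slr1, against 16.5, 20.2 and 24.4 in wild type. EUI1 (LOC_Os05g40384), a P450 enzyme that oxidises and so inactivates GA, stood at 90.9, 62.6 and 72.8 normalised reads in slr1, against 12.6, 11.7 and 11.2 in wild type. For both, every slr1 library was above 4 times the highest wild-type library. GA2ox4 rose (log2 fold change 2.97, SE 0.36, adjusted p = 0.00324 by limma), as did EUI1 (log2 fold change 2.56, SE 0.26, adjusted p = 0.00213 by limma). GA2ox7 had a log2 fold change of 2.81 (adjusted p = 0.00660) and GA2ox3 of 2.34 (adjusted p = 0.00131). The rise of GA2ox8 ended without slr1 replicate 2 or 3 or wild-type replicate 1 or 3 (highest adjusted p = 0.131). GA2ox10 (LOC_Os05g11810), listed with the GA 2-oxidases, had 1309, 1123 and 1026 normalised reads in slr1, against 1338, 1331 and 1777 in wild type and was not called (adjusted p = 0.140). GA2ox9 fell with a log2 fold change of -1.36, and its call ended without slr1 replicate 1, 2 or 3 or wild-type replicate 2 or 3 (highest adjusted p = 0.141).

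Of 8 tested GA biosynthesis genes 2 fell (7.14% of all genes tested fell) and 6 were not called, with a median log2 fold change of -0.57. CPS1 (LOC_Os02g17780), which starts the pathway by closing the first rings of its diterpene precursor, stood at 80.8, 114 and 24.3 normalised reads in slr1, against 236, 254 and 242 in wild type. It fell (log2 fold change -1.98, SE 0.52, adjusted p = 0.0324 by limma), and the call ended without wild-type replicate 1, 2 or 3 (highest adjusted p = 0.0974). GA20ox1 (LOC_Os03g63970), a GA 20-oxidase of the late steps, stood at 181, 214 and 230.2 normalised reads in slr1, against 487, 369 and 399.5 in wild type. It fell (log2 fold change -1.0005, SE 0.17, adjusted p = 0.00749 by limma), and the call ended without slr1 replicate 1 or wild-type replicate 1 (log2 fold change -0.89 at the least, under 2-fold). KO2 (LOC_Os06g37364), the oxidase of the middle steps, had 724, 1250.5 and 929 normalised reads in slr1, against 1219.9, 1609 and 1250.4 in wild type, and was not called (log2 fold change -0.51, adjusted p = 0.125). edgeR called 0 of the 8, and limma without wild-type replicate 1 called 0. In perception and signalling 1 of 6 tested genes rose (6.57% of all genes tested rose), with a list median log2 fold change of 0.14. That was SLRL1 (LOC_Os01g45860), a DELLA-like gene without the DELLA motif, with 264, 216 and 285 normalised reads in slr1, against 87.1, 101 and 131 in wild type (log2 fold change 1.26, SE 0.21, adjusted p = 0.00739 by limma). GID2, the F-box protein, stood at 9015, 7518 and 6001 normalised reads in slr1, against 6437, 6085 and 5895 in wild type and was not called (adjusted p = 0.263). The receptor gene GID1 was lower by less than 2-fold, at 1197, 1202 and 1641 normalised reads in slr1, against 1961, 2372 and 2369 in wild type (log2 fold change -0.74, adjusted p = 0.0161).

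Most expansin genes rose. Expansins are wall proteins that let the cellulose network slip as cells grow, and 9 of 15 tested members rose, 1 fell and 5 were not called, beside 6.57% and 7.14% of all genes tested. Their median log2 fold change was 1.45, and 7 of the 9 rises held without any 1 library. The count of rises ran from 7 without wild-type replicate 3 to 11 without slr1 replicate 3.

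The largest fold belonged to EXPB2 (LOC_Os10g40710), a beta-expansin, with 741, 522 and 1013 normalised reads in slr1, against 37.8, 23.4 and 11.2 in wild type. Every slr1 library was more than 10-fold above every wild-type library (log2 fold change 5.02, SE 0.44, adjusted p = 0.00158 by limma). EXPB11 (LOC_Os02g44108) stood at 4691, 2958 and 1840.3 normalised reads in slr1, against 361, 356 and 166 in wild type (log2 fold change 3.40, SE 0.41, adjusted p = 0.00330 by limma). EXPB3 (LOC_Os10g40720), which neighbours EXPB2 by locus number, stood at 18231, 9665 and 8869 normalised reads in slr1, against 1755, 1668 and 956 in wild type (log2 fold change 3.04, SE 0.34, adjusted p = 0.00262 by limma). These beta-expansins are close relatives, so reads may be split between copies in a way the counting decides. EXPA4 (LOC_Os05g39990), an alpha-expansin, stood at 12249, 7762 and 7083 normalised reads in slr1, against 2065, 1936 and 1449.7 in wild type (log2 fold change 2.29, SE 0.24, adjusted p = 0.00229 by limma). For these 4 genes no slr1 library came near the wild-type range, and slr1 replicate 1 was the highest library for EXPB11, EXPB3, EXPA4 and EXPA2. EXPA1 (LOC_Os04g15840) was at low levels in wild type, with 269.5, 72.4 and 156 normalised reads in slr1, against 33.9, 6.39 and 16.3 in wild type (log2 fold change 3.15, SE 0.66, adjusted p = 0.0154 by limma), and its call ended without wild-type replicate 3 (adjusted p = 0.0555). Among the others, replicates decided more. EXPA6 rose as well (log2 fold change 1.45), and its call ended without wild-type replicate 3 (adjusted p = 0.0585). EXPB4 (LOC_Os10g40730) stood at 13852, 9130.0 and 5550.1 normalised reads in slr1, against 4746, 4326 and 4488 in wild type, without overlap, and missed the test (adjusted p = 0.0550). EXPA5 (LOC_Os02g51040) went the other way, with 281, 83.2 and 109.7 normalised reads in slr1, against 584, 338 and 494 in wild type (log2 fold change -1.74, SE 0.45, adjusted p = 0.0307 by limma), and its call ended without slr1 replicate 2 or 3 or wild-type replicate 1 or 3.

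**Figure D2:**
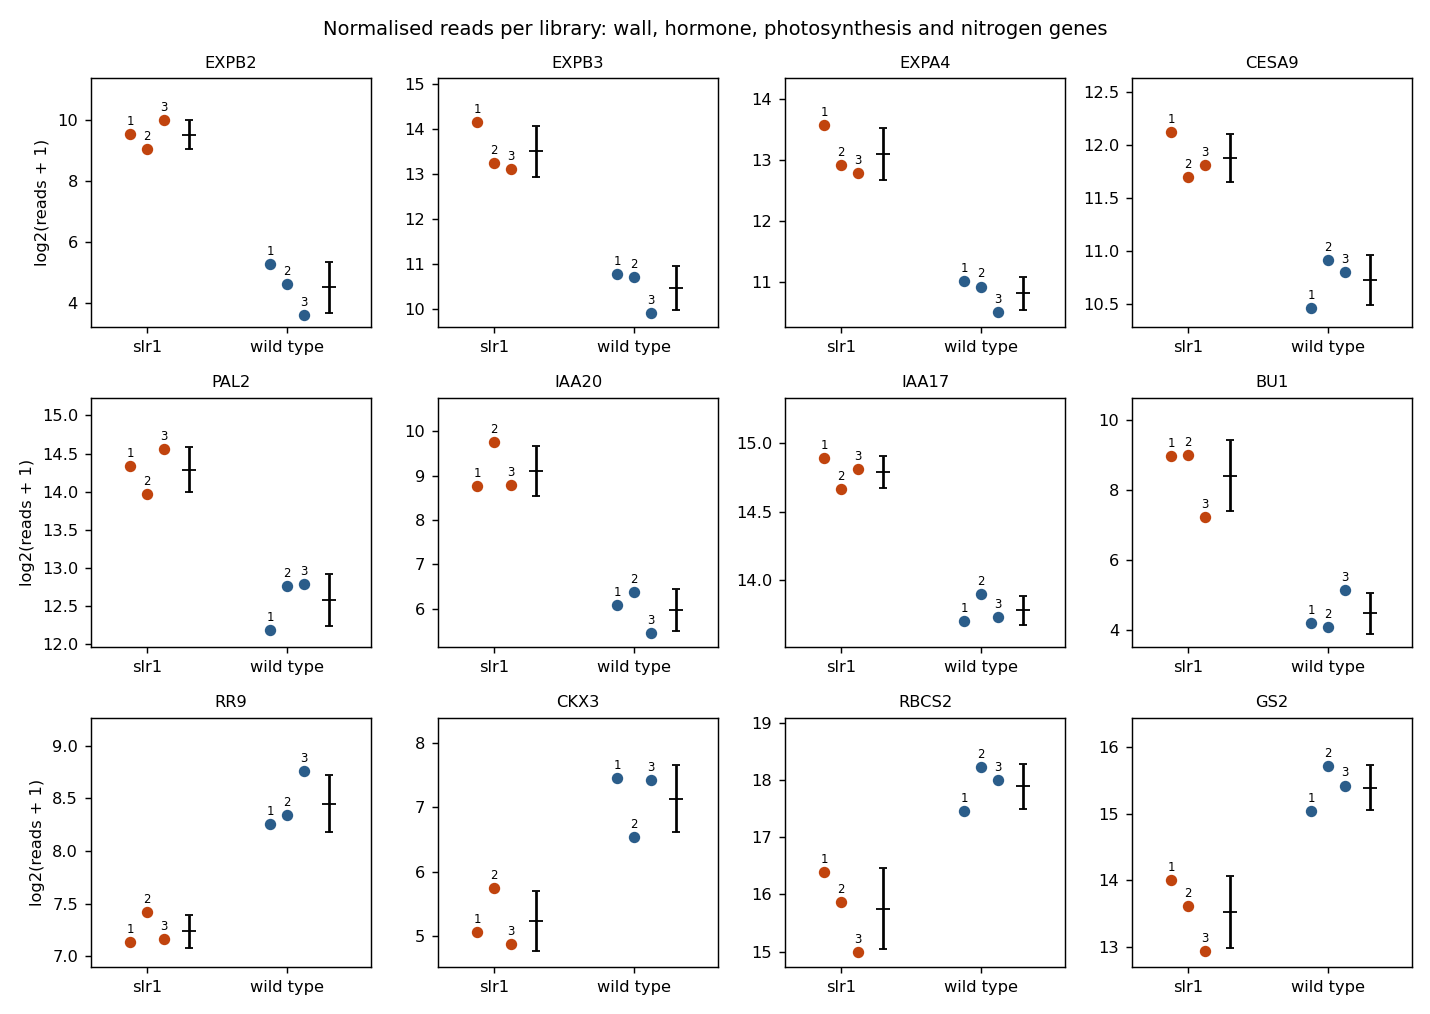
Normalised reads on a log2(value + 1) scale in the 3 slr1 (left) and 3 wild-type libraries (right) for 12 genes, numbered by replicate, with the mean and SD beside each group; each panel has its own range, which does not start at 0. The 12 genes were chosen after their values were seen, and in each the 2 genotypes do not overlap, as for EXPB2 at 522 to 1013 normalised reads in slr1 and 11.2 to 37.8 in wild type.

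Cellulose synthases of the secondary wall rose, and those of the primary wall were not called. CESA4, CESA7 and CESA9 form the complex that lays down cellulose in thickened walls, and BC1 is a COBRA-like protein needed for their strength. Of 7 tested secondary wall genes 4 rose (6.57% of all genes tested rose) and 3 were not called, with a median log2 fold change of 1.07. CESA9 (LOC_Os09g25490) stood at 4457, 3305 and 3589 normalised reads in slr1, against 1407, 1921 and 1782 in wild type (log2 fold change 1.15, SE 0.17, adjusted p = 0.00497 by limma). CESA4 (LOC_Os01g54620) stood at 5808, 3555 and 3871 normalised reads in slr1, against 1754, 2345 and 1961 in wild type (log2 fold change 1.102, SE 0.21, adjusted p = 0.0107 by limma). CESA7 had a log2 fold change of 1.07 and BC1 of 1.05, all just past the 2-fold minimum. Only CESA9 kept its call without each 1 of the libraries: the call of CESA4 ended without slr1 replicate 1 (log2 fold change 0.89, under 2-fold), that of CESA7 ended without slr1 replicate 1 or wild-type replicate 1 (log2 fold change 0.87 at the least, under 2-fold), and that of BC1 ended without wild-type replicate 1, 2 or 3 (highest adjusted p = 0.104) and without slr1 replicate 1 (log2 fold change 0.71, under 2-fold). edgeR, run without slr1 replicate 1, called 1 of the 7. The transcription factor genes MYB46, MYB61 and MYB103L, which switch on secondary wall synthesis, had log2 fold changes of 1.19, 0.61 and 0.40 and were not called (adjusted p = 0.0685, 0.149 and 0.396).

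Of 6 primary wall cellulose synthase genes 0 were called by limma, edgeR or DESeq2. The unadjusted limma p was under 0.05 for 3, beside 9695 of all 25132 genes tested. Without slr1 replicate 2, limma called 1 of the 6. The list median log2 fold change was 0.41, and 5 of the 6 changes were above 0. CESA3 and CESA8 were higher by less than 2-fold (log2 fold change 0.75 and 0.73) and were not called (adjusted p = 0.107 and 0.0893 by limma). CESA1 (LOC_Os05g08370) stood at 21099, 11604 and 10219 normalised reads in slr1, against 9752, 11515 and 12635 in wild type (log2 fold change 0.27, adjusted p = 0.509). The groups overlapped, and slr1 replicate 1 alone was well above the rest. CESA2 (LOC_Os03g59340) was lower by less than 2-fold, at 2623, 2595 and 2590.1 normalised reads in slr1, against 3171, 4118 and 4141 in wild type (adjusted p = 0.0250).

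Phenylpropanoid enzymes, which turn phenylalanine into lignin precursors and other phenolics, were higher in part. Of 12 tested genes 4 rose (6.57% of all genes tested rose) and 8 were not called, with a median log2 fold change of 0.88. PAL4 (LOC_Os02g41680), a phenylalanine ammonia-lyase at the entry of the pathway, stood at 2032, 1548 and 1632 normalised reads in slr1, against 411, 414 and 686 in wild type (log2 fold change 1.82, SE 0.22, adjusted p = 0.00336 by limma). PAL2 (LOC_Os02g41650) stood at 20604, 16103 and 24237 normalised reads in slr1, against 4647, 6957 and 7099.9 in wild type (log2 fold change 1.71, SE 0.23, adjusted p = 0.00400 by limma). Both copies lie near each other by locus number, so their reads may not be fully separated. 4CL3 (LOC_Os02g08100), a ligase that activates coumarate for lignin, stood at 9287, 4999 and 7830.4 normalised reads in slr1, against 2129, 2362 and 2749 in wild type (log2 fold change 1.57, SE 0.23, adjusted p = 0.00548 by limma). These 3 rises held without any 1 library. CAD2 (LOC_Os02g09490), the alcohol dehydrogenase of the last step to lignin monomers, had a log2 fold change of 1.095, and its call ended without slr1 replicate 3 or wild-type replicate 1, 2 or 3 (highest adjusted p = 0.0758) and without slr1 replicate 1 (log2 fold change 0.85, under 2-fold). PAL1 (LOC_Os02g41630) stood at 86212, 71108 and 139522 normalised reads in slr1, against 33423, 64226 and 44085 in wild type and was not called (adjusted p = 0.0709).

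Most Aux/IAA genes rose. Aux/IAA proteins repress auxin responses and are themselves induced by auxin, so their transcripts are a common readout of that hormone. Of 22 tested members 14 rose, 1 fell and 7 were not called, beside 6.57% and 7.14% of all genes tested, with a median log2 fold change of 1.08. In 17 of the 22 the genotypes did not overlap, beside 45.1% of all genes tested. Of the 14 rises 10 held without any 1 library, and the count ran from 11 without wild-type replicate 1 to 14. The reads of the list summed to between 69600 and 71460 in the slr1 libraries, against 34045 to 41381 in the wild-type libraries.

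IAA20 (LOC_Os06g07040) stood at 437, 865 and 439.9 normalised reads in slr1, against 66.8, 82.0 and 42.7 in wild type (log2 fold change 3.14, SE 0.35, adjusted p = 0.00262 by limma). IAA16 (LOC_Os05g09480) stood at 418, 431 and 487 normalised reads in slr1, against 93.9, 106 and 98.6 in wild type (log2 fold change 2.15, SE 0.15, adjusted p = 0.000897 by limma), and its libraries lay close together in both genotypes. IAA30 (LOC_Os12g40900) stood at 1948, 1772 and 1419.8 normalised reads in slr1, against 429.9, 373 and 377 in wild type (log2 fold change 2.11, SE 0.15, adjusted p = 0.000897 by limma). In these 3 genes the slr1 libraries lay at least 3-fold above every wild-type library. IAA9 had a log2 fold change of 1.99 (adjusted p = 0.00286). IAA17 (LOC_Os05g14180) stood at 30426, 25992 and 28713 normalised reads in slr1, against 13329, 15276 and 13577 in wild type (log2 fold change 1.01, SE 0.15, adjusted p = 0.00517 by limma), just past 2-fold, and the call ended without slr1 replicate 1 or wild-type replicate 1 or 3 (log2 fold change 0.96 at the least, under 2-fold). IAA1, IAA24 and IAA31 also passed by little. The call of IAA1 ended without slr1 replicate 2 or wild-type replicate 1 or 3 (highest adjusted p = 0.0754) and without slr1 replicate 3 (log2 fold change 0.93, under 2-fold). That of IAA24 ended without wild-type replicate 1 (log2 fold change 0.93, under 2-fold), and that of IAA31 ended without slr1 replicate 1 (log2 fold change 0.88, under 2-fold). The exception was IAA7 (LOC_Os02g13520), with 78.7, 39.1 and 24.3 normalised reads in slr1, against 161, 138 and 138 in wild type, which fell (log2 fold change -1.76, SE 0.40, adjusted p = 0.0205 by limma), and its call ended without slr1 replicate 2 or wild-type replicate 1 or 3 (highest adjusted p = 0.0685).

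In the brassinosteroid list, which covers synthesis and signalling of another growth-promoting steroid hormone, 3 of 15 tested members rose (6.57% of all genes tested rose) and 12 were not called, with a median log2 fold change of 0.28. BU1 (LOC_Os06g12210), a helix-loop-helix protein that promotes bending of the leaf joint, stood at 504, 517 and 151 normalised reads in slr1, against 17.4, 16.0 and 34.6 in wild type (log2 fold change 3.93, SE 0.53, adjusted p = 0.00425 by limma). slr1 replicate 3 was the lowest of its group and still above every wild-type library. D2 (LOC_Os01g10040), a cytochrome P450 of brassinosteroid synthesis, stood at 1303, 1163 and 943 normalised reads in slr1, against 300.1, 482 and 334 in wild type (log2 fold change 1.63, SE 0.21, adjusted p = 0.00378 by limma). BRD1 (LOC_Os03g40540), an oxidase of the last steps, stood at 1508, 1499 and 848 normalised reads in slr1, against 441, 449 and 482 in wild type (log2 fold change 1.44, SE 0.23, adjusted p = 0.00654 by limma). These rises held without any 1 library. The receptor gene BRI1 was higher by less than 2-fold, at 4239, 4007 and 4027 normalised reads in slr1, against 2444, 2943 and 2482 in wild type (log2 fold change 0.65, adjusted p = 0.00847). DWARF4, D11 and BRD2, which also act in synthesis, had log2 fold changes of -0.71, -0.15 and -0.33 and were not called (adjusted p = 0.140, 0.491 and 0.293).

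Type-A response regulators are switched on quickly by cytokinin and damp its signal. Of 8 tested members 3 fell (7.14% of all genes tested fell) and 5 were not called, with a median log2 fold change of -1.07. RR9 (LOC_Os11g04720) stood at 139, 170.3 and 143 normalised reads in slr1, against 305, 323 and 432 in wild type (log2 fold change -1.21, SE 0.19, adjusted p = 0.00601 by limma). RR5 (LOC_Os04g44280) was near the detection limit, with 2.02, 1.96 and 1.94 normalised reads in slr1, against 10.7, 14.9 and 11.2 in wild type (log2 fold change -2.14, SE 0.36, adjusted p = 0.00742 by limma). RR1 (LOC_Os04g36070) stood at 53.5, 81.2 and 32.0 normalised reads in slr1, against 157, 183 and 166 in wild type (log2 fold change -1.68, SE 0.33, adjusted p = 0.0127 by limma), and its call ended without wild-type replicate 3 (adjusted p = 0.0512). Every slr1 library was below every wild-type library for these 3 regulators. For RR5 that was fixed by the filter, since only its wild-type libraries reached the tested level. The p-value of RR5 is therefore no separate support for the difference. RR4 and RR10 were lower by less than 2-fold (log2 fold change -0.81 and -0.96, adjusted p = 0.00960 and 0.0106). RR2 (LOC_Os02g35180) stood at 791, 1199.6 and 800.2 normalised reads in slr1, against 969, 1090.3 and 1048 in wild type and was not called (adjusted p = 0.489). Cytokinin oxidases degrade the hormone, and 1 of 6 tested members fell, against that same 7.14%, with a list median log2 fold change of -0.28. That was CKX3 (LOC_Os10g34230), with 32.3, 52.8 and 28.2 normalised reads in slr1, against 174, 91.6 and 172 in wild type (log2 fold change -1.91, SE 0.35, adjusted p = 0.00996 by limma). Without wild-type replicate 2, 2 of the 6 fell. CKX11 (LOC_Os08g35860) stood at 1039.8, 943 and 1653 normalised reads in slr1, against 646, 882 and 607 in wild type and was not called (adjusted p = 0.0642).

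Class I KNOX homeobox genes keep cells of the shoot meristem undetermined. Of 5 tested members 3 rose (6.57% of all genes tested rose) and 2 were not called, with a median log2 fold change of 2.24. OSH43 (LOC_Os03g56110) stood at 129, 63.6 and 82.5 normalised reads in slr1, against 7.75, 4.26 and 4.07 in wild type (log2 fold change 3.85, SE 0.38, adjusted p = 0.00203 by limma). Only its slr1 libraries reached the tested level, so the filter fixed the lack of overlap between genotypes. The p-value of OSH43 is therefore no separate support for the difference. OSH15 (LOC_Os07g03770) stood at 629.9, 485 and 353 normalised reads in slr1, against 90.0, 19.2 and 61.0 in wild type (log2 fold change 3.30, SE 0.54, adjusted p = 0.00713 by limma). Wild-type replicate 2 was the lowest wild-type library for OSH15. The call of OSH71 ended without slr1 replicate 1, 2 or 3 or wild-type replicate 3 (highest adjusted p = 0.0763). OSH1 (LOC_Os03g51690), the best known meristem gene of the list, had 560.3, 603 and 226 normalised reads in slr1, against 173, 30.9 and 131 in wild type, and was not called (log2 fold change 2.24, adjusted p = 0.0502). Without wild-type replicate 1 all 5 tested members rose.

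Genes of cell division were not called. Of 15 tested replication and mitosis genes 0 were called by limma, edgeR or DESeq2. An unadjusted limma p under 0.05 was found for 5, beside 9695 of all 25132 genes tested. The log2 fold changes of all 15 list members were below 0, with a median of -0.59. Their summed reads were 13097, 12702 and 7922 in the slr1 libraries, against 19366, 13248 and 15156 in the wild-type libraries. slr1 replicate 3 had the lowest sum. PCNA (LOC_Os02g56130), the sliding clamp of DNA polymerase, stood at 1554, 1754 and 1182 normalised reads in slr1, against 2668, 1711 and 1843 in wild type (log2 fold change -0.46, adjusted p = 0.158). RNRL1 (LOC_Os06g07210), the large subunit of ribonucleotide reductase, had the lowest unadjusted p of the list and stood at 1272, 1329 and 1134 normalised reads in slr1, against 1967, 1456 and 1600.1 in wild type (adjusted p = 0.0687). Cyclin gene CYCB2-2 ranged widely, at 374, 366 and 96.1 normalised reads in slr1, against 647, 303 and 500.2 in wild type (adjusted p = 0.241).

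Growth-regulating factors are transcription factors of leaf and stem growth. Of 12 tested members, the cofactor GIF1 included, 1 fell and 11 were not called, near the background of 7.14% of all genes tested that fell, with a median log2 fold change of -0.27. GRF10 (LOC_Os02g45570) stood at 101, 65.6 and 75.7 normalised reads in slr1, against 178, 119 and 237 in wild type (log2 fold change -1.10, SE 0.30, adjusted p = 0.0356 by limma), and its call ended without slr1 replicate 2 or 3 or wild-type replicate 1 or 3 (highest adjusted p = 0.118). GRF4, GRF9 and GRF3 passed on p alone, GRF4 and GRF9 lower (log2 fold change -0.88 and -0.67, adjusted p = 0.0331 and 0.0268) and GRF3 higher, at 1489, 1518 and 1219.8 normalised reads in slr1, against 866, 683 and 990.2 in wild type (log2 fold change 0.74, adjusted p = 0.0186).

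**Figure D3:**
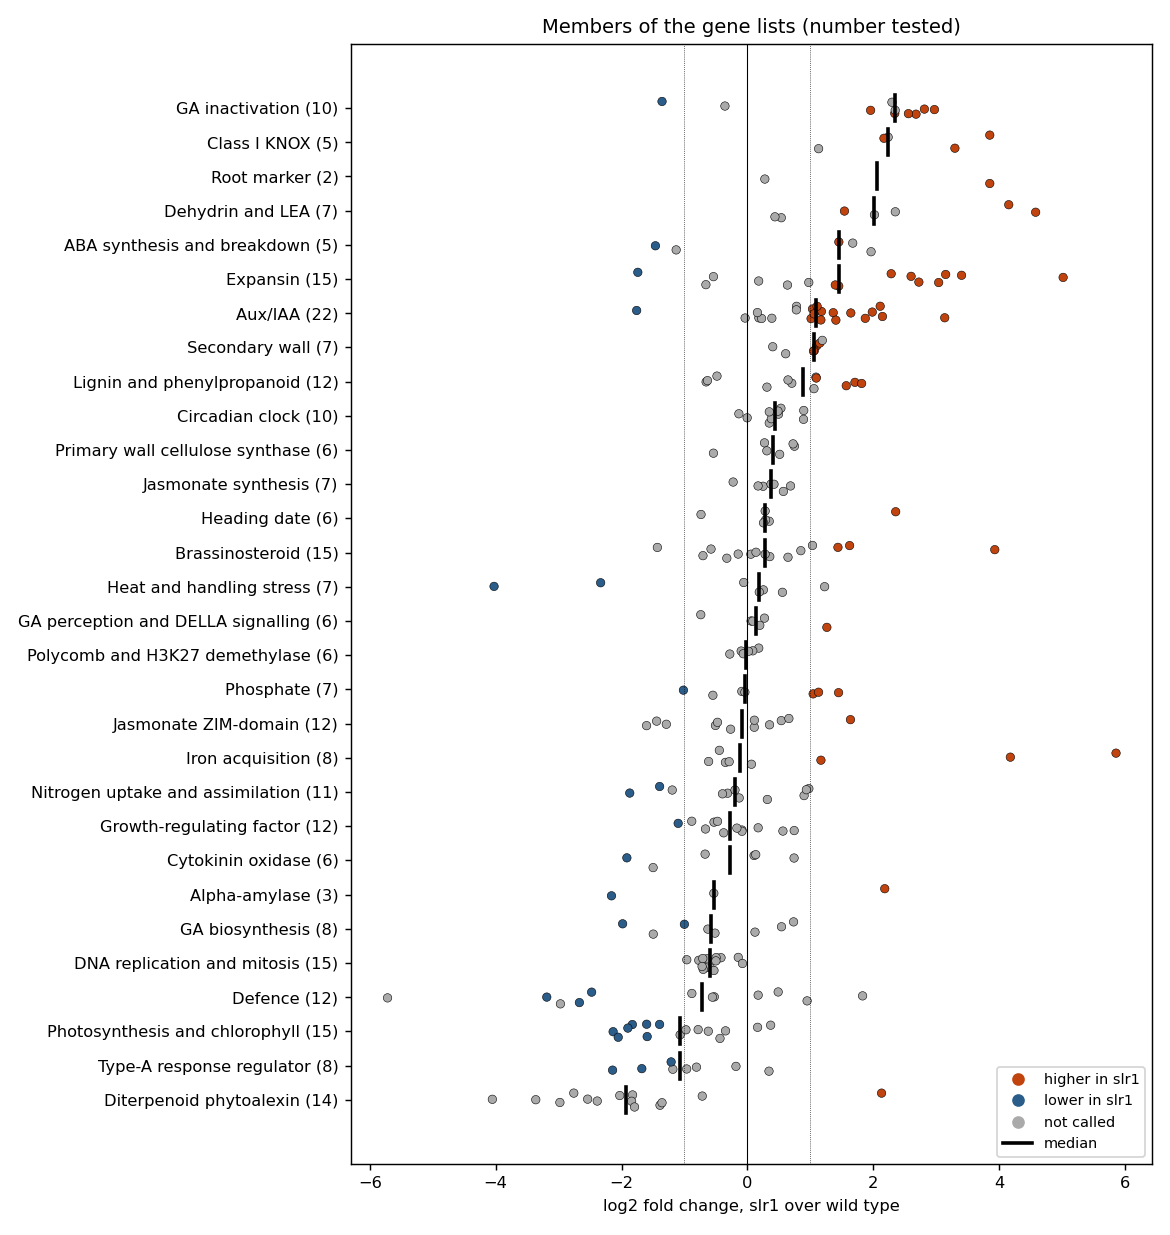
Log2 fold change, slr1 over wild type, of each tested member of the 30 gene lists (1 point a gene; numbers tested in brackets), ordered by the list median (black bar). Dotted lines mark the 2-fold minimum; the vertical scatter within a list has no meaning. GA inactivation and KNOX genes have the highest medians (2.35 and 2.24) and diterpenoid genes the lowest (-1.93), where 13 of 14 members were not called.

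Photosynthesis genes fell in part. Of 15 tested genes of carbon fixation, light reactions and chlorophyll synthesis 7 fell and 8 were not called, where 7.14% of all genes tested fell, with a median log2 fold change of -1.07. In bulk tissue, fewer leaf cells and less RNA per leaf cell cannot be told apart. RBCS2 (LOC_Os12g17600), a small subunit of Rubisco, the enzyme that fixes carbon dioxide, stood at 85624, 60126 and 32766 normalised reads in slr1, against 178959, 305271 and 260682 in wild type (log2 fold change -2.13, SE 0.43, adjusted p = 0.0130 by limma). Its call ended without wild-type replicate 3 (adjusted p = 0.0578). RBCS3 (LOC_Os12g19381) stood at 115956, 84528 and 55031 normalised reads in slr1, against 191227, 305478 and 257497 in wild type (log2 fold change -1.60, SE 0.39, adjusted p = 0.0244 by limma), and its call ended without slr1 replicate 2 or wild-type replicate 2 or 3 (highest adjusted p = 0.0952). The RBCS copies are nearly identical, so reads may be shared between them. RBCS5 had a log2 fold change of -1.83 (adjusted p = 0.00998).

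RCA (LOC_Os11g47970), the activase that keeps Rubisco working, stood at 25195, 15291 and 9717 normalised reads in slr1, against 33225, 87064 and 67168 in wild type (log2 fold change -1.90, SE 0.46, adjusted p = 0.0239 by limma), and its call ended without slr1 replicate 2 or 3 or wild-type replicate 2 or 3 (highest adjusted p = 0.0881). PsbO (LOC_Os01g31690), a protein of the water-splitting complex, stood at 20132, 17386 and 13979.7 normalised reads in slr1, against 45842, 54577 and 53602 in wild type (log2 fold change -1.59, SE 0.20, adjusted p = 0.00340 by limma). PsbP (LOC_Os07g04840), its partner, stood at 16049.9, 14313 and 10783 normalised reads in slr1, against 32378, 38057 and 36546 in wild type (log2 fold change -1.39, SE 0.19, adjusted p = 0.00442 by limma). For these 2 the libraries within a genotype lay close, and both calls held without any 1 library. PORA (LOC_Os04g58200), a light-dependent enzyme of chlorophyll synthesis, stood at 373, 82.2 and 85.5 normalised reads in slr1, against 870.4, 409 and 536 in wild type (log2 fold change -2.05, SE 0.60, adjusted p = 0.0450 by limma), and its call ended without slr1 replicate 2 or 3 or wild-type replicate 1, 2 or 3 (highest adjusted p = 0.135). The list was not uniform. CAB1R and CHLH had log2 fold changes of -0.35 and 0.16 and were not called (adjusted p = 0.520 and 0.583), nor was GLK1, a regulator of chloroplast development (log2 fold change 0.37, adjusted p = 0.164). With wild-type replicate 3 left out 3 genes fell, with wild-type replicate 2 left out 4 did, and with any other library left out 5 to 8 did.

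Genes of nitrogen uptake and assimilation included a pair that fell. Of 11 tested genes 2 fell (7.14% of all genes tested fell) and 9 were not called, with a median log2 fold change of -0.20. Both that fell encode plastid enzymes of ammonium assimilation, which act in sequence to make glutamine and then glutamate. GS2 (LOC_Os04g56400), a glutamine synthetase, stood at 16387, 12594 and 7858 normalised reads in slr1, against 33710.0, 53539.7 and 43828 in wild type (log2 fold change -1.87, SE 0.31, adjusted p = 0.00708 by limma). Fd-GOGAT (LOC_Os07g46460), a ferredoxin-dependent glutamate synthase, stood at 24659, 26403 and 18235 normalised reads in slr1, against 52119, 72835 and 56809.8 in wild type (log2 fold change -1.39, SE 0.23, adjusted p = 0.00723 by limma). Both calls held without any 1 library. The cytosolic glutamine synthetase genes were higher by less than 2-fold. GS1.1 (LOC_Os02g50240) stood at 9753, 5132 and 5888 normalised reads in slr1, against 3183, 3494 and 3471 in wild type (log2 fold change 0.98, adjusted p = 0.0235). GS1.2 (LOC_Os03g12290) stood at 1726, 2211 and 2118 normalised reads in slr1, against 977, 1116 and 1053 in wild type (log2 fold change 0.94, adjusted p = 0.00429). The nitrate transceptor gene NRT1.1B was likewise higher by less than 2-fold (log2 fold change 0.90, adjusted p = 0.0384). Without slr1 replicate 1, 2 or 3 or wild-type replicate 2, 1 member of the list rose.

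Genes of the response to water loss and abscisic acid (ABA) were higher in part. Dehydrins and LEA proteins protect cells as they dry, and their list here also holds the lectin gene SalT. Of its 7 tested genes 3 rose (6.57% of all genes tested rose) and 4 were not called, with a median log2 fold change of 2.02. RAB16A (LOC_Os11g26790), a dehydrin, stood at 281, 239.7 and 698 normalised reads in slr1, against 5.81, 7.45 and 59.0 in wild type (log2 fold change 4.58, SE 0.85, adjusted p = 0.0101 by limma). SalT (LOC_Os01g24710), a lectin induced by salt and drought, stood at 7927, 5638 and 11845 normalised reads in slr1, against 723, 279 and 462 in wild type (log2 fold change 4.15, SE 0.39, adjusted p = 0.00175 by limma). LIP9 (LOC_Os02g44870), a dehydrin, stood at 3181, 2204 and 1917 normalised reads in slr1, against 648, 628 and 1331 in wild type (log2 fold change 1.54, SE 0.32, adjusted p = 0.0151 by limma), and its call ended without wild-type replicate 1 (adjusted p = 0.0515). RAB16B and RAB16C had log2 fold changes of 0.54 and 0.44 and were not called (adjusted p = 0.684 and 0.652 by limma). Wild-type replicate 3 was the highest wild-type library for RAB16A and LIP9. LEA3, a further protective protein gene, was high in that library alone of the wild-type group, with 52.5, 15.7 and 33.0 normalised reads in slr1, against 0.968, 1.06 and 111 in wild type (adjusted p = 0.364). Of 5 tested genes of ABA synthesis or breakdown 1 rose and 1 fell, beside 6.57% and 7.14% of all genes tested. The other 3 were not called, and the list median log2 fold change was 1.45. ABA8ox2 (LOC_Os08g36860), a hydroxylase that breaks ABA down, rose with 644, 535 and 692 normalised reads in slr1, against 177, 203 and 319 in wild type (log2 fold change 1.45, SE 0.24, adjusted p = 0.00695 by limma). Its relative ABA8ox1 (LOC_Os02g47470) fell, with 1399, 2428 and 3186 normalised reads in slr1, against 8053, 3881 and 7230.1 in wild type (log2 fold change -1.46, SE 0.37, adjusted p = 0.0288 by limma), and that call ended without slr1 replicate 1 or 2 or wild-type replicate 1 or 3 (highest adjusted p = 0.102). The genotypes did not overlap for either hydroxylase, as for 45.1% of all genes tested. NCED3 and NCED4, which make the ABA precursor, had log2 fold changes of 1.67 and 1.97 and were not called (adjusted p = 0.0641 and 0.201). Without wild-type replicate 3 the count of ABA turnover genes that rose was 3.

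Of 7 tested heat and handling stress genes 2 fell (7.14% of all genes tested fell) and 5 were not called, with a median log2 fold change of 0.19. Both that fell are DREB1 transcription factor genes, known for their quick induction by cold. DREB1B (LOC_Os09g35010) stood at 75.7, 73.4 and 142 normalised reads in slr1, against 1831, 854 and 2247 in wild type (log2 fold change -4.03, SE 0.41, adjusted p = 0.00220 by limma). DREB1A (LOC_Os09g35030) stood at 303, 423 and 564 normalised reads in slr1, against 2444, 1681 and 2256 in wild type (log2 fold change -2.33, SE 0.25, adjusted p = 0.00241 by limma). Every slr1 library was below every wild-type library, while the groups did not overlap for 45.1% of all genes tested. Both calls held without any 1 library. DREB2A (LOC_Os01g07120), induced by heat and drought, stood at 403, 493 and 490.4 normalised reads in slr1, against 405, 346 and 469 in wild type and was not called (adjusted p = 0.419). The heat shock genes HSP101 and HSP90 had log2 fold changes of 0.56 and 1.23 and were not called (adjusted p = 0.257 and 0.0960).

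Defence genes differed both by genotype and by library. Of 12 tested members 3 fell (7.14% of all genes tested fell) and 9 were not called, with a median log2 fold change of -0.72, and without wild-type replicate 2 the count that fell was 6. The 3 encode WRKY transcription factors of pathogen response. WRKY45 (LOC_Os05g25770), a central factor of salicylic acid signalling in rice, stood at 725, 624 and 516 normalised reads in slr1, against 5241, 1529 and 5024 in wild type (log2 fold change -2.48, SE 0.46, adjusted p = 0.0101 by limma). WRKY62 (LOC_Os09g25070) stood at 97.9, 55.8 and 75.7 normalised reads in slr1, against 1384, 330.1 and 711 in wild type (log2 fold change -3.19, SE 0.50, adjusted p = 0.00626 by limma). WRKY76 (LOC_Os09g25060) stood at 142, 119 and 139 normalised reads in slr1, against 1319, 455 and 1032 in wild type (log2 fold change -2.67, SE 0.37, adjusted p = 0.00444 by limma). For these 3 wild-type replicate 2 was the lowest wild-type library and still above all slr1 libraries, and the calls held without any 1 library. The pathogenesis-related gene PR1b (LOC_Os01g28450) had 550.2, 2.94 and 20.4 normalised reads in slr1, against 9751, 35.1 and 19219.9 in wild type, a spread that left its log2 fold change of -5.72 uncalled (adjusted p = 0.160). PBZ1 (LOC_Os12g36880) showed the same order of wild-type libraries, with 981, 46.0 and 119 normalised reads in slr1, against 7104, 28.7 and 12667 in wild type (adjusted p = 0.379). WRKY53 (LOC_Os05g27730) stood at 5095, 5990.1 and 5453 normalised reads in slr1, against 9226, 5977 and 9578 in wild type and was not called (adjusted p = 0.0825).

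Diterpenoid phytoalexins are antimicrobial compounds made by gene clusters that start from the same precursor as GA. Of 14 tested genes 1 rose and 13 were not called, near the background of 6.57% of all genes tested that rose. Their median log2 fold change was -1.93 all the same. Their summed reads were 2646, 156 and 468 in the slr1 libraries, against 12413, 175 and 18738 in the wild-type libraries. Wild-type replicate 2 was thus as low as slr1 replicate 2, and slr1 replicate 1 was the highest slr1 library. CPS2 (LOC_Os02g36210), a cyclase at the entry of such a branch, stood at 326, 0 and 41.8 normalised reads in slr1, against 2844, 0 and 5350.4 in wild type (adjusted p = 0.516). Without wild-type replicate 2, 7 members fell, and edgeR, run without slr1 replicate 1, called 2 members in either direction, against 7 by DESeq2. KSL5 (LOC_Os02g36220), a further cyclase, went against the rest, with 58.6, 40.1 and 51.5 normalised reads in slr1, against 7.75, 8.52 and 17.3 in wild type (log2 fold change 2.13, SE 0.37, adjusted p = 0.00829 by limma).

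**Figure D4:**
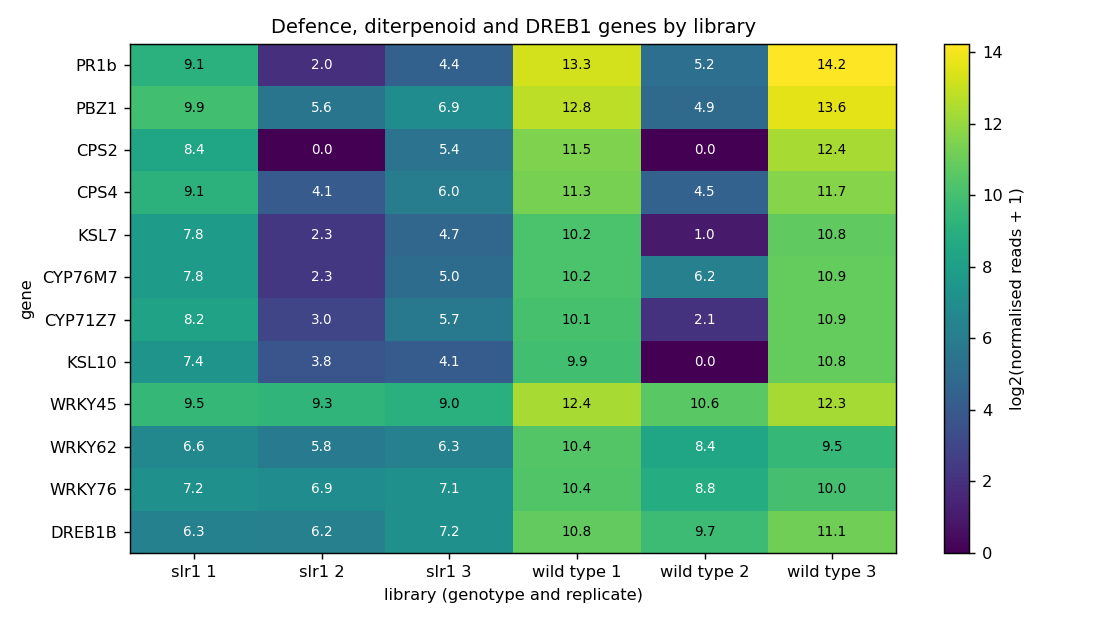
Log2(normalised reads + 1) of 12 defence, diterpenoid and DREB1 genes (rows) in the 3 slr1 libraries (left) and the 3 wild-type libraries (right), with the value in each cell; the genes were chosen after their values were seen. PR1b, PBZ1 and the diterpenoid genes are low in wild-type replicate 2 and higher in slr1 replicate 1 than in the other slr1 libraries, while the WRKY genes and DREB1B are lower in all slr1 libraries.

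Most jasmonate genes were not called. Of 12 tested JAZ genes, which encode repressors of the wound and defence hormone jasmonate, 1 rose and 11 were not called, near the background of 6.57% of all genes tested that rose, with a median log2 fold change of -0.08. JAZ3 (LOC_Os08g33160) stood at 4813, 6194 and 5759.9 normalised reads in slr1, against 1555, 2028 and 1800.4 in wild type (log2 fold change 1.64, SE 0.15, adjusted p = 0.00163 by limma). That call held without any 1 library. JAZ7 (LOC_Os07g42370) stood at 9508, 7797 and 6475 normalised reads in slr1, against 5502, 6016 and 6964 in wild type and was not called (adjusted p = 0.178). Without wild-type replicate 2, 2 JAZ genes fell, and without slr1 replicate 1, 1 fell. Of 7 genes of jasmonate synthesis and its factor MYC2, 0 were called by limma, edgeR or DESeq2, and the median log2 fold change was 0.38. Among the 7, 3 had an unadjusted limma p under 0.05, beside 9695 of all 25132 genes tested. JAR1 (LOC_Os05g50890), which makes the active conjugate, passed on p alone with 4068, 5025 and 4264 normalised reads in slr1, against 2644, 3669 and 2731 in wild type (log2 fold change 0.57, adjusted p = 0.0398). Without wild-type replicate 2, 1 of the 7 fell.

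The iron list held the largest log2 fold change among all listed genes tested, that of IRO2. Of 8 tested genes 3 rose (6.57% of all genes tested rose) and 5 were not called, with a median log2 fold change of -0.11. IRO2 (LOC_Os01g72370), a transcription factor induced when iron is short, stood at 344, 274 and 1619.9 normalised reads in slr1, against 10.7, 6.39 and 8.13 in wild type (log2 fold change 5.86, SE 0.64, adjusted p = 0.00262 by limma). NAS1 (LOC_Os03g19427), which makes the iron chelator precursor nicotianamine, stood at 22.2, 32.3 and 384 normalised reads in slr1, against 1.94, 3.19 and 3.05 in wild type (log2 fold change 4.18, SE 1.00, adjusted p = 0.0235 by limma), and its call ended without wild-type replicate 1, 2 or 3 (highest adjusted p = 0.0736). Both were highest in slr1 replicate 3. For NAS1 only the slr1 libraries reached the tested level, so the filter fixed the lack of overlap between genotypes. The p-values of NAS1 are therefore no separate support for the difference. IRO3 had a log2 fold change of 1.17, and its call ended without wild-type replicate 2 or 3 (highest adjusted p = 0.0736) and without slr1 replicate 3 (log2 fold change 0.94, under 2-fold). FER1 (LOC_Os11g01530), an iron storage ferritin, stood at 8235, 4065 and 5106 normalised reads in slr1, against 5101, 5556 and 5268 in wild type and was not called (adjusted p = 0.869). The transporter genes YSL15 and TOM1 were below the tested level, and slr1 replicate 3 held most of their reads: YSL15 had 3.03, 0.978 and 39.8 normalised reads in slr1, against 0, 0 and 0 in wild type, and TOM1 had 1.01, 2.94 and 18.5 normalised reads in slr1, against 0, 0 and 0 in wild type.

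In the phosphate list 3 of 7 tested genes rose, 1 fell and 3 were not called, beside 6.57% and 7.14% of all genes tested, with a median log2 fold change of -0.04. SPX2 and SPX1 encode proteins that sense phosphate status. SPX2 (LOC_Os02g10780) stood at 181, 177 and 357 normalised reads in slr1, against 93.9, 69.2 and 84.4 in wild type (log2 fold change 1.45, SE 0.31, adjusted p = 0.0153 by limma), and its call ended without wild-type replicate 3 (adjusted p = 0.0552). SPX1 (LOC_Os06g40120) stood at 769, 534 and 1052 normalised reads in slr1, against 383, 409 and 312 in wild type (log2 fold change 1.05, SE 0.25, adjusted p = 0.0238 by limma), and its call ended without slr1 replicate 1 or wild-type replicate 1 or 3 (highest adjusted p = 0.0890) and without slr1 replicate 3 (log2 fold change 0.81, under 2-fold). The transporter gene PT1 (LOC_Os03g05620) fell, with 2187, 2156 and 3068 normalised reads in slr1, against 6026, 3357 and 5915 in wild type (log2 fold change -1.02, SE 0.26, adjusted p = 0.0291 by limma), and its call ended without slr1 replicate 1 or 2 or wild-type replicate 1 or 3 (highest adjusted p = 0.105). For these 3 genes the genotypes did not overlap, as for 45.1% of all genes tested. PHO1;2 rose (log2 fold change 1.13), and its call ended without slr1 replicate 1 or 2 or wild-type replicate 1, 2 or 3 (highest adjusted p = 0.143). Without wild-type replicate 3 none of the 7 was called by limma. With all libraries 5 had an unadjusted limma p under 0.05, beside 9695 of all 25132 genes tested. Of the 7, edgeR called 2. PHO2 (LOC_Os05g48390) stood at 3673, 3563 and 2822 normalised reads in slr1, against 3719, 3419 and 3152 in wild type (adjusted p = 0.857).

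Alpha-amylases break down starch and are textbook GA targets in germinating grain. The median log2 fold change of 3 tested genes was -0.53. RAmy2A (LOC_Os06g49970) rose, with 95.9, 78.3 and 137 normalised reads in slr1, against 16.5, 24.5 and 24.4 in wild type (log2 fold change 2.18, SE 0.30, adjusted p = 0.00433 by limma). RAmy3B (LOC_Os09g28420) fell, with 13.1, 11.7 and 20.4 normalised reads in slr1, against 91.0, 52.2 and 69.1 in wild type (log2 fold change -2.16, SE 0.33, adjusted p = 0.00589 by limma). Both calls held without any 1 library. RAmy3D (LOC_Os08g36910) varied among libraries of both genotypes, with 173, 843 and 132 normalised reads in slr1, against 143, 782 and 523 in wild type, and was not called (adjusted p = 0.673).

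Of 10 tested clock genes 0 were called by limma and 1 by each of edgeR and DESeq2, and the median log2 fold change was 0.43. Among the 10, 6 had an unadjusted limma p under 0.05, beside 9695 of all 25132 genes tested. PRR95 (LOC_Os09g36220), a pseudo-response regulator, stood at 3091, 4555 and 3563 normalised reads in slr1, against 1928, 2217 and 1819.7 in wild type (log2 fold change 0.90, adjusted p = 0.00977), higher by just under 2-fold. Without slr1 replicate 1 or 2 or wild-type replicate 2, 1 clock gene rose. GI (LOC_Os01g08700) stood at 34441, 31404 and 37709 normalised reads in slr1, against 22461, 27631 and 23904 in wild type (adjusted p = 0.0809). In the heading date list 1 of 6 tested genes rose (6.57% of all genes tested rose), and the median log2 fold change was 0.29. It was MADS18 (LOC_Os07g41370), a MADS-box factor of the change to flowering, with 223, 183 and 317 normalised reads in slr1, against 31.0, 70.3 and 41.7 in wild type (log2 fold change 2.36, SE 0.35, adjusted p = 0.00525 by limma). The florigen gene Hd3a was below the tested level, averaging 1.66 normalised reads in slr1 and 0 in wild type. MADS51 (LOC_Os01g69850) stood at 2078, 2337 and 2587 normalised reads in slr1, against 1873, 2069 and 1797 in wild type and was not called (adjusted p = 0.129). Polycomb proteins place the repressive H3K27me3 mark on histones. Of 6 tested Polycomb and H3K27 demethylase genes, with a median log2 fold change of -0.02, 0 were called by limma, edgeR or DESeq2. Beside 9695 of all 25132 genes tested, 1 of the 6 had an unadjusted limma p under 0.05. That was CLF, with 1208, 1106 and 969 normalised reads in slr1, against 1377, 1300.1 and 1293 in wild type (adjusted p = 0.121). FIE2 (LOC_Os08g04270) stood at 2173, 2072 and 2013 normalised reads in slr1, against 1896, 2270.0 and 2026 in wild type (adjusted p = 0.915).

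Of the root markers 1 rose (6.57% of all genes tested rose). The 2 tested had a median log2 fold change of 2.07. RCc3 (LOC_Os02g44310) rose, with 729, 252 and 183 normalised reads in slr1, against 37.8, 9.58 and 26.4 in wild type (log2 fold change 3.85, SE 0.64, adjusted p = 0.00734 by limma). Lsi1 (LOC_Os02g51110) was not called, with 224, 331 and 302 normalised reads in slr1, against 187, 224 and 299.9 in wild type (adjusted p = 0.413). The 7 root markers of the table summed to 534 to 987 normalised reads in the slr1 libraries, against 230.4 to 339.5 in the wild-type libraries. RCc3 made up the difference for the most part, and Lsi1, with the next highest reads, overlapped between genotypes. NRT2.1 was at or near 0 in both genotypes. Leaf markers summed to between 136636 and 294520 in slr1, against 533354 to 864466 in wild type, and 6 of 8 fell (7.14% of all genes tested fell). RBCS2 and RBCS3 held most of those reads. All 8 leaf markers are members of the photosynthesis list above, so these falls are the same calls given there. The part of tissue make-up in the results above was not tested.

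Calls were spread over the genome and over levels of expression. The share of tested genes called ran from 12.3% on chromosomes 6 and 8 to 16.9% on chromosome 11, and the share past 4-fold from 3.01% on chromosome 3 to 5.52% on chromosome 11, read from the locus IDs. Among the 805 genes with a mean over 5000 normalised reads, 57 rose and 121 fell, 22.1% in all. Among the 9019 genes with means from 200 to 1000 normalised reads, 528 rose and 451 fell, 10.9% in all. At the low end, among the 1622 genes with means under 20, 149 rose and 174 fell, 19.9% in all. The median SE of the log2 fold change was 0.42 for genes with means under 20 and 0.14 for those from 1000 to 5000.

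A few genes were on in one genotype only. There were 8 genes at 0 in every wild-type library and at 10 or more in every slr1 library, and 4 genes the other way round. The files pair no names with the genes outside the lists. LOC_Os08g15230 stood at 1887, 2126 and 2234 normalised reads in slr1, against 0, 0 and 0 in wild type, at least 2048-fold higher in slr1, counting 3 reads over the wild-type group as the limit of detection. LOC_Os04g08828 stood at 253, 92.0 and 374 normalised reads in slr1, against 0, 0 and 0 in wild type, at least 236-fold higher. In the other direction LOC_Os11g09979 stood at 0, 0.978 and 0 normalised reads in slr1, against 2130.0, 2822 and 2197 in wild type, and fell (adjusted p = 3.66e-05 by limma). LOC_Os01g41240 stood at 4.04, 4.89 and 0 normalised reads in slr1, against 4402, 5962 and 4321 in wild type (log2 fold change -10.61, SE 0.64, adjusted p = 0.000746 by limma). Neither LOC_Os11g09979 nor LOC_Os01g41240 is among the 4 genes counted above, since each had a few reads in slr1. The loci named here were picked for the size of their fold. They passed the filter only through the genotype where they were high, so their p-values are no separate support for the difference. The DNA sequence of the loci named here was not tested in either genotype.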

How the data were processed

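RNA was measured in 3 slr1 and 3 wild-type libraries with TruSeq RNA kits and paired-end reads, per the labels' protocols. Tools named in the submitters' processing notes are HISAT2, featureCounts 2.0.0, DESeq2 1.38.3 and DESeq; the sources used here name no genome build. The deposited value of each library is a signal: reads per gene divided by a size factor. The authors also deposited a mean signal, a log2 fold change with its error, a score of their test and a p-value, raw and adjusted, which were not used. In all 6 columns the smallest value above 0 divided 100% of the others without remainder (tolerance 0.01). For slr1 replicate 1 that step (1.01) lay too near 1 to be accepted by the unit check applied to these files, so count tests used the other 5 libraries.

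Genes reaching a value of 10 in 3 or more libraries were tested with limma 3.58.1 (R 4.3.3) on log2(value + 1), with a trend and Benjamini-Hochberg adjustment over the 25132 genes. SE is limma's. Such fold changes understate those of low genes. The test was tried on simulated counts with known changes. edgeR 4.0.16 (quasi-likelihood, TMM) and DESeq2 1.42.0 on the reads of 5 libraries were added after the data were seen; the other alternatives were other pseudocounts, filters and scaling, the replicate block, and each library left out. Members and lists were chosen with earlier results of these data known, so lists have counts and medians only. Named in full per list are up to 4 called members with the largest fold, the member with the most reads and, where none was called, that of lowest p, plus the 2 unlisted genes of largest fold per direction with a mean of at least 100 in the higher group; others were chosen after their values were seen. Replicates differed by more than counting noise: squared differences in reads per gene, divided by the counting variance, averaged 17.6 to 52.3 over the 4 pairs within genotypes.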

Additional observations from a re-analysis of the deposited data

How the results depend on the processing

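The count of genes that rose ran from 1179 to 1632 and that of genes that fell from 1093 to 1797 when 1 library was left out; without wild-type replicate 3, 63.0% of the 3446 calls remained. Under the other alternatives both counts stayed within 1.5 times, and no gene called in both was called in opposite directions. TMM scaling moved the median log2 fold change by 0.01. edgeR and DESeq2 on all 6 libraries were planned and not run, since whole reads were not accepted for slr1 replicate 1. edgeR on 5 libraries called 1593 and 1721 genes and DESeq2 1658 and 2114, and DESeq2 was the setting with the lowest share of rises, 44.0% against 47.9%. With the replicate block limma called 1529 and 1608 genes. Same-numbered libraries of the 2 genotypes did not deviate together, with correlations of 0.09, 0.19 and -0.16, so the numbers were not taken as pairs; not every library correlated best with its own number.

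Directions turned only for named genes that were not called. Without 1 library, log2 fold changes came to between -0.0086 and 0.13 for SLR1, -0.045 and 0.48 for CESA1, -0.22 and 0.29 for FER1 and -0.040 and 0.089 for FIE2. With edgeR on 5 libraries they were 0.035 for RAmy3D, -0.041 for CESA1, -0.20 for FER1 and -0.0051 for FIE2, and with DESeq2 0.015, -0.054, -0.22 and -0.018. The cause was not tested. Among the named genes, 20 calls were lost without wild-type replicate 3, 8 to 15 without any other 1 library and 4 with the block. The median SE of the log2 fold change was 0.42 for genes with means under 20 reads and 0.14 for those from 1000 to 5000, so low genes were measured less precisely.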
